A study of Mus musculus with 72 samples.

Results

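The apelin receptor gene Aplnr and the genes of its ligands, Apln (apelin) and Apela (Elabela, also called Toddler), were followed in control and Nup133-mutant stem cells of the mouse embryo. These 3 members were found by symbol among 45321 genes, and each was represented by its transcript with the highest total count. They were chosen by measured values of these samples, above all the near-zero Aplnr counts of the mutant cells at days 0 and 2. The genotype differences of Aplnr at those days are therefore given as descriptions without a test. Nup133 is a scaffold subunit of the Y-complex of the nuclear pore.

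Aplnr encodes a G protein-coupled receptor that signals mainly through inhibitory G proteins and beta-arrestins. Both ligands are made as secreted precursors whose C-terminal part is the active peptide. In the early vertebrate embryo the receptor and Apela guide the movement of mesendoderm cells and the formation of the heart, and apelin and its receptor are best known from growing blood vessels.

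The series compared control and Nup133 mutant stem cells in the pluripotent state and on the way to neuroectoderm, by polyA+ RNA sequencing. Day 0 cells came from serum and LIF cultures on mitotically inactivated mouse fibroblasts and were plated briefly to remove those feeders. Day 2 cells had been in serum-free N2B27 medium, and day 3 cells had received 1 µM all-trans retinoic acid for the last 24 h. The control group at each day held 2 biological replicates of HM1 (Nup133+/+, XY) and 1 sample of the blastocyst-derived line 1A4 (Nup133+/+, Sox1gfp/+, XY), both labelled as having 40 chromosomes. The mutant group held 1 sample each of lines 14 and 19, which are CRISPR/Cas9-edited Nup133-/- derivatives of HM1 labelled 40 chromosomes, XY (for line 19 as likely), and of line 319. Line 319 is blastocyst-derived, carries Nup133 merm/merm and Sox1gfp/+, and is labelled 42 chromosomes, XX +8 +12. Each mutant line is 1 line sampled once a day, so the 3 mutant samples of a day differ in line, and for line 319 also in background and labelled karyotype. All 18 samples were sequenced as 4 technical replicates that were added up.

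The libraries held 16466724 to 54386795 counts on genes. Nup133 itself was at 179.5 to 323.4 CPM (counts scaled to a library of 1000000) in the 9 control samples and at 14.3 to 37.1 CPM in the 9 mutant samples. Several libraries went against their karyotype labels. The summed level of 6 Y-linked genes was 108.0 to 335 CPM in the controls, 3.09 to 10.7 CPM in lines 14 and 19, which are labelled XY, and 0.181 to 0.673 CPM in line 319. All mutant samples thus lay under all controls in Y-linked expression. Its part in a genotype difference cannot be told apart from that of Nup133. In line 319 the median log2 difference from HM1 was 0.37 to 0.51 over 426 genes of chromosome 12 and 0.43 to 0.70 over 443 genes of chromosome X. Over 677 genes of chromosome 8, labelled as gained in line 319, it was -0.50 to -0.36. Chromosome 8 genes also had medians of -0.39 to -0.21 in line 19, against -0.07 to -0.04 in line 14 and 0.07 to 0.09 in 1A4. Over 1040 genes of chromosome 11 every other line had medians under HM1. They were -0.32 to -0.25 in line 14, -0.36 to -0.22 in line 19, -0.38 to -0.31 in line 319 and -0.19 to -0.14 in 1A4. Lhx1 and Hdac5, named below, lie on chromosome 11, and the part of its dosage was not tested. Apela lies on chromosome 8 and Apln on chromosome X. The genotype differences of Apln at days 0 and 2 and of Apela at days 0 and 3 are therefore also given without line 319. Line 19, with its lowered chromosome 8 medians, stays in those fits. Pluripotency marked the day 0 cells: 10 marker genes summed to 4262 to 4703 CPM in controls and 4765 to 6178 CPM in mutants, against 502.5 to 590 and 285.5 to 642 CPM at day 3. The library of line 19 at day 2 was the shallowest and stood apart from the rest. Leaving it out changed none of the ligand and receptor calls except 1, named below.

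**Figure D1:**
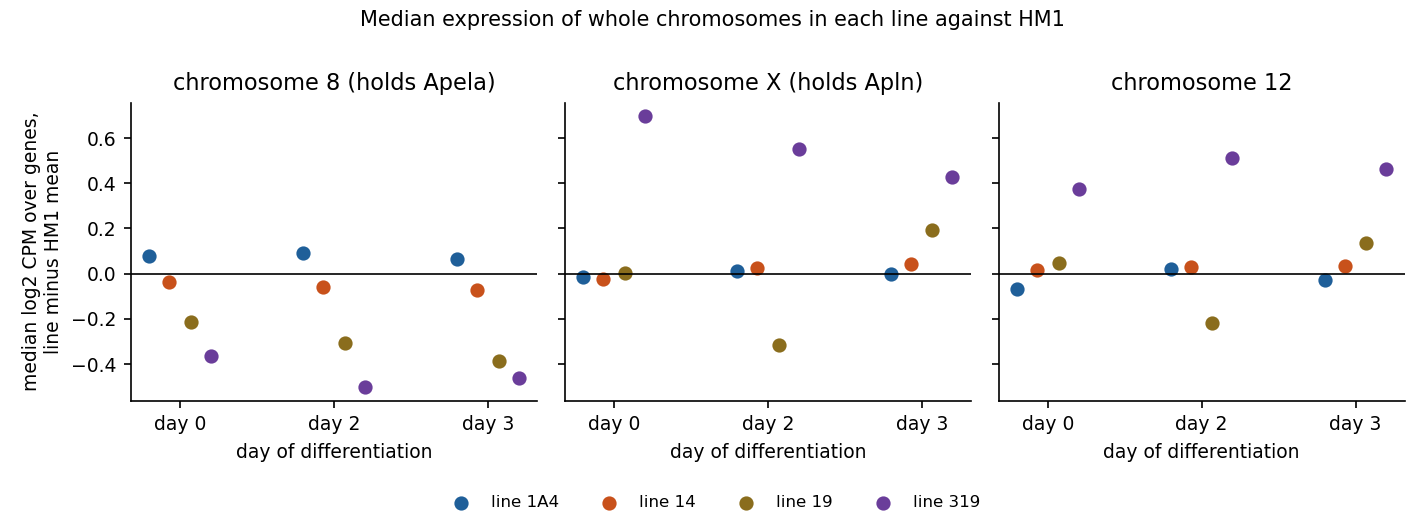
Median log2 CPM over the genes of chromosomes 8, X and 12 (y axis, line minus the mean of the 2 HM1 replicates) at days 0, 2 and 3 (x axis), 1 point per line and day. Line 319 lies at -0.50 to -0.36 for chromosome 8 and at 0.43 to 0.70 for chromosome X, while 1A4 stays between -0.07 and 0.09 on all of these chromosomes.

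The coding sequences of the ligands show how small the measured precursors are. They were read from the GENCODE M21 transcripts (GRCm38) and run 5′ to 3′ on the transcript strand, the start codon and the codons of the best-known mature peptides standing in capitals. In Apela the capitals cover the last 32 of 54 codons, and in Apln the last 13 of 77, which encode apelin-13.
Apela: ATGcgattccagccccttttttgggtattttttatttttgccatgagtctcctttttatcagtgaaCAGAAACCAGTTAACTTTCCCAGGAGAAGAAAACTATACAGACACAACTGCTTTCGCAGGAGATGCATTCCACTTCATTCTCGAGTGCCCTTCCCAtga
Apln: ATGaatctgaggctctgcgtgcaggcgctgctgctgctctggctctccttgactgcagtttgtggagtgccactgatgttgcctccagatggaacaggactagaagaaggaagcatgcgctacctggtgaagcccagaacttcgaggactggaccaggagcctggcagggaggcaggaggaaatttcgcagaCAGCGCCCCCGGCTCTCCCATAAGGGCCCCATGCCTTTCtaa
Apela (chr8:65028417-65037336, minus strand, 4 exons) has a transcript of 975 bases of which 16.9% are coding with the stop codon. Apln (chrX:48025146-48034853, minus strand, 3 exons) has 3149 bases, 7.43% of them coding. Aplnr (chr2:85136225-85139923, plus strand) is a single exon of 3699 bases in the transcript used. Most of each ligand transcript is thus untranslated. Apela shares 297 exon bases with Gm45886, an annotated non-coding gene on the same strand, and reads there could not be assigned to one of them. Gm45886 was at 17.5 ± 3.69 CPM at day 0 and 2.55 ± 0.31 CPM at day 3 in the controls (SD, n = 3, values only, without a test). These values can include Apela reads from the shared bases. The choice of transcript was nearly a tie for Apela, with total counts of 18165 for the one used and 18162 for the other, and clear for Aplnr, with 1075 against 111. Both Apela transcripts held the same count in every control sample, so their totals do not tell them apart.

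Aplnr, the receptor, was present at a low level in every control sample and was nearly absent from the mutant cells at days 0 and 2. Line 19 still held only 4 counts at day 3. At day 0 the controls held 111 and 290 counts in the HM1 replicates and 42 counts in 1A4. Lines 14, 19 and 319 held 2, 1 and 1 counts. All mutant samples lay far below all controls, although the HM1 replicates differed by more than counting error, with 95% Poisson intervals of 91.3 to 134 and 258 to 325 counts. Such intervals cover counting error only, as amplified reads are not independent molecules.

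At day 2 the controls held 137, 148 and 119 Aplnr counts, and lines 14, 19 and 319 held 5, 1 and 0. For the 0 in line 319 the exact 95% Poisson interval reaches 3.69 counts, and the floor of 3 counts is 0.130 CPM in that library. At day 3 the controls held 48, 77 and 45 counts, and the mutant lines had 23, 4 and 21. The groups did not overlap at any day. In each comparison the mutant samples lay under all controls for 9.7% of the 18273 genes tested at day 0, 11.7% at day 2 and 17.6% at day 3, and for Aplnr the choice of the gene fixed this at days 0 and 2.

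Aplnr passed the low-count filter through its control samples. In CPM scaled by the trimmed mean of M-values (TMM), Aplnr averaged 3.84 ± 2.77 in controls and 0.0374 ± 0.027 in mutants at day 0 (SD, n = 3 each, as for all group means here). At day 2 it averaged 2.97 ± 0.53 and 0.0568 ± 0.0502 CPM. The summed counts differed 127.7-fold at day 0, with an exact 95% counting interval of 49.5 to 470.7, and 43.7-fold at day 2, with an interval of 19.9 to 119.9. Single libraries moved both ratios: the day 0 ratio was 73.0 without the second HM1 replicate, 193.8 without line 14, and the day 2 ratio was 107.5 without line 14. In HM1 and its derivatives alone the ratios were 119.5 and 35.8.

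The day 3 test of Aplnr is no independent support, because the gene was chosen for its low counts in these same lines at the earlier days and entered the test through its control samples. The day 3 means were 1.68 ± 0.78 CPM in controls and 0.354 ± 0.204 CPM in mutants. In the edgeR quasi-likelihood fit Aplnr was lower in mutants by a log2 fold change of -2.10 ± 0.54 (SE; adjusted p = 0.037), a call shared by 5.2% of all genes at this day. It rests on few samples: without any 1 of the 3 controls, or without line 14 or line 19, the log2 fold change lay between -2.49 and -1.69 and the adjusted p rose to between 0.069 and 0.19. Without line 319 it was -2.79 (adjusted p = 0.0088), and in HM1-derived lines alone -2.75 (adjusted p = 0.024). Without the background term the adjusted p was 0.0504, and with all transcripts of a gene added up it was 0.054.

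Between days the control level of Aplnr did not change past the threshold. In the control cells the log2 change was -0.30 ± 0.47 from day 0 to day 2 (adjusted p = 0.66) and -0.85 ± 0.48 from day 2 to day 3 (adjusted p = 0.23). The first of these was 0.27 without the second HM1 replicate. In the mutant lines the summed counts of day 3 were 5.55-fold those of day 2, with a counting interval of 2.37 to 15.9, given without a test. Line 319 went from 0 to 21 counts over the retinoic acid step and line 14 from 5 to 23, while line 19 went from 1 to 4. The ratio was 13.4 without line 14 and 3.31 without line 319.

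**Figure D2:**
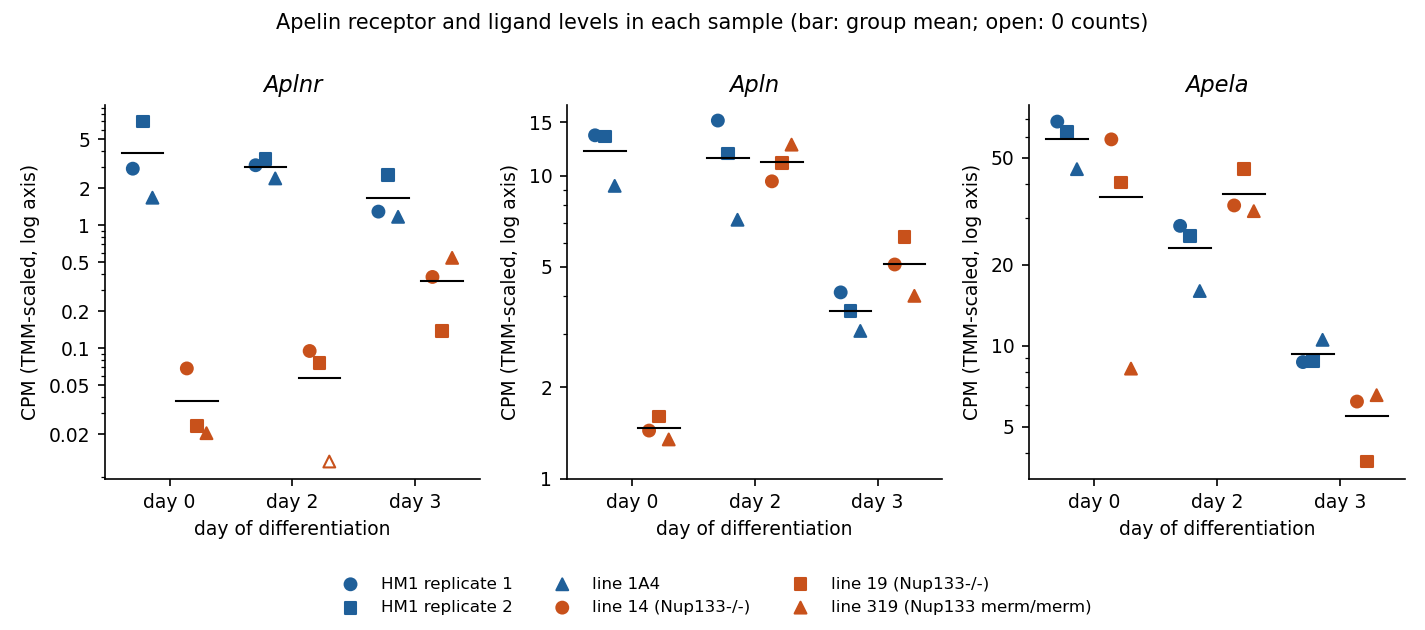
TMM-scaled CPM on log axes (y axis, 1 panel per gene with its own range) at days 0, 2 and 3 (x axis) in each of the 18 samples. Blue marks are controls, orange marks are mutant lines, bars are group means, and the open triangle is the library of line 319 with 0 Aplnr counts, drawn at an arbitrary low position. Aplnr stays under the controls in every mutant sample, Apln does so at day 0 alone, and Apela does so at day 3.

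Apln, the gene of apelin, was about 8-fold lower in mutant cells at day 0 and no longer differed past the threshold after the cells had left serum and LIF. At day 0 the controls held 523, 561 and 232 counts, or 13.6, 13.5 and 9.26 CPM. Lines 14, 19 and 319 held 42, 69 and 66 counts, or 1.44, 1.60 and 1.35 CPM. The mutant lines agreed closely with each other and all lay below every control, a separation found for 9.7% of genes at this day. The log2 fold change was -3.03 ± 0.25, or 8.14-fold, and edgeR's quasi-likelihood test gave an adjusted p of 2.1e-05, the smallest p among 18273 genes. In that comparison 0.854% of all genes were called, and 0.788% of all genes were called lower. Apln was chosen with earlier results of these data known, so its p-value and rank are no independent support. Apln was lower in all 16 alternative analyses, with log2 fold changes of -3.17 to -2.94 and adjusted p up to 0.0049. It was -3.16 without line 319, the line with the raised chromosome X median, and -3.13 in HM1-derived lines alone.

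At day 2 the Apln samples of both genotypes overlapped. Controls were at 15.2, 11.8 and 7.15 CPM and lines 14, 19 and 319 at 9.58, 11 and 12.7 CPM. The log2 fold change was 0.02 ± 0.23 with a 95% confidence interval of -0.48 to 0.52 (adjusted p = 0.97), where 1.6% of genes were called. The sign differed between the lines: against their own control, lines 14 and 19 were at -0.48 and -0.28 and line 319 at 0.82. Line 319 differs from the other mutant lines in background, allele and labelled karyotype, which cannot be told apart here. Without line 319 the log2 fold change was -0.30.

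At day 3 the control samples were at 4.12, 3.57 and 3.07 CPM and lines 14, 19 and 319 at 5.09, 6.28 and 4.01 CPM. Each mutant line was above the control of its own background, by 0.40, 0.70 and 0.38 on the log2 scale, but the groups overlapped. The pooled log2 fold change was 0.50 ± 0.23 and did not pass (adjusted p = 0.22). The chromosome X median of line 319 against 1A4 was 0.46 at this day, and the part of chromosome dosage was not tested.

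The change of the genotype difference was tested as an interaction in the same fit. For Apln it was 3.04 ± 0.33 from day 0 to day 2 (adjusted p = 0.0019) and 3.53 ± 0.34 from day 0 to day 3 (adjusted p = 1.5e-04). Calls were rare in these tests, at 0.0219% and 0.427% of all genes. Since Apln was chosen with earlier results of these data known, they are no independent support either. With the cell line as a block the first of these tests called 1 gene in place of 4. From day 2 to day 3 it was 0.48 ± 0.32 (adjusted p = 0.63). The first interaction lost its call without the second HM1 replicate (3.00, adjusted p = 0.19) and in HM1-derived lines alone (2.73, adjusted p = 0.0501), whereas the day 3 interaction passed in all 15 alternatives run on it.

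Between days, Apln rose in mutant cells on leaving serum and LIF, and fell in both genotypes over the retinoic acid step. From day 0 to day 2 the control change was -0.11 ± 0.22 (adjusted p = 0.75), with 35.2% of genes called. The mutant change over the same step was 2.94 ± 0.25, a 7.67-fold rise (adjusted p = 1.0e-06), with 35.9% of genes called. All 3 mutant lines rose, by 2.69, 2.74 and 3.18. Over the retinoic acid step Apln fell in controls by 1.64 ± 0.23 (adjusted p = 1.5e-04) and in mutants by 1.15 ± 0.23 (adjusted p = 0.0016), where 21.4% and 33.6% of genes were called.

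Apela was the most abundant member in every control sample per kilobase of transcript, and no genotype difference in it passed the test at any day. At day 0 the control samples were at 68.2, 62.5 and 45.4 CPM, and lines 14, 19 and 319 at 58.6, 40.5 and 8.22 CPM. Against the HM1 mean, lines 14 and 19 were at -0.16 and -0.69 on the log2 scale. Line 319 was 1 outlying low value, 2.46 below 1A4 on that scale. The group difference was -0.81 ± 0.42 (adjusted p = 0.54). Without line 319 it was -0.33 (adjusted p = 0.69).

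At day 2 all mutant samples were above all controls in Apela, at 33.3, 45.3 and 31.7 CPM in lines 14, 19 and 319 against 27.9, 25.6 and 16.0 CPM. Such a separation upwards was found for 9.94% of genes at this day. The log2 fold change of 0.69 ± 0.42 was not called (adjusted p = 0.37). At day 3 the order was turned, with 6.20, 3.71 and 6.55 CPM in the mutant lines and 8.69, 8.78 and 10.5 CPM in the controls. A separation downwards was found for 17.6% of genes at day 3. The log2 fold change was then -0.76 ± 0.43 (adjusted p = 0.33). It passed without line 319 (-1.02, adjusted p = 0.042) and with day 3 fitted alone (-0.78, adjusted p = 0.048), but not in HM1-derived lines alone (-0.81, adjusted p = 0.11).

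The interaction tests of Apela gave 1.5 ± 0.60 from day 0 to day 2 (adjusted p = 0.60) and -1.45 ± 0.60 from day 2 to day 3 (adjusted p = 0.56), where 0.0383% of genes were called (7, and 3 with the cell line as a block). A change of the genotype difference between days was therefore not shown for Apela. Chromosome 8 medians were lowered in lines 19 and 319 at all 3 days. Against the control of their own background, Apela in these lines was at -0.69 and -2.46 at day 0. It was at 0.76 and 0.98 at day 2, and at -1.23 and -0.68 at day 3. The part of chromosome dosage in the Apela values was not tested.

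Between days, 1 step of each genotype was called for Apela, both downwards. The shares of all genes called were 35.2% and 21.4% over the control steps, and 35.9% and 33.6% over the mutant steps. In controls the log2 change from day 0 to day 2 was -1.35 ± 0.42 (adjusted p = 0.021), a call that was lost when any 1 control was left out (adjusted p = 0.11 to 0.12) and without the low-count filter (adjusted p = 0.069). The next control step, -1.24 ± 0.43, just missed the threshold (adjusted p = 0.051), and passed in 7 of 15 alternatives, with an adjusted p of 0.0017 and a log2 change of -1.27 without line 319. In mutants the first step was 0.15 ± 0.42 (adjusted p = 0.81), made up of -0.82 in line 14, 0.16 in line 19 and 1.94 in line 319. It was -0.33 without line 319. Over the retinoic acid step Apela fell in mutants by 2.69 ± 0.45, or 6.44-fold (adjusted p = 4.4e-04), with log2 changes of -2.41, -3.59 and -2.27 in lines 14, 19 and 319.

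**Figure D3:**
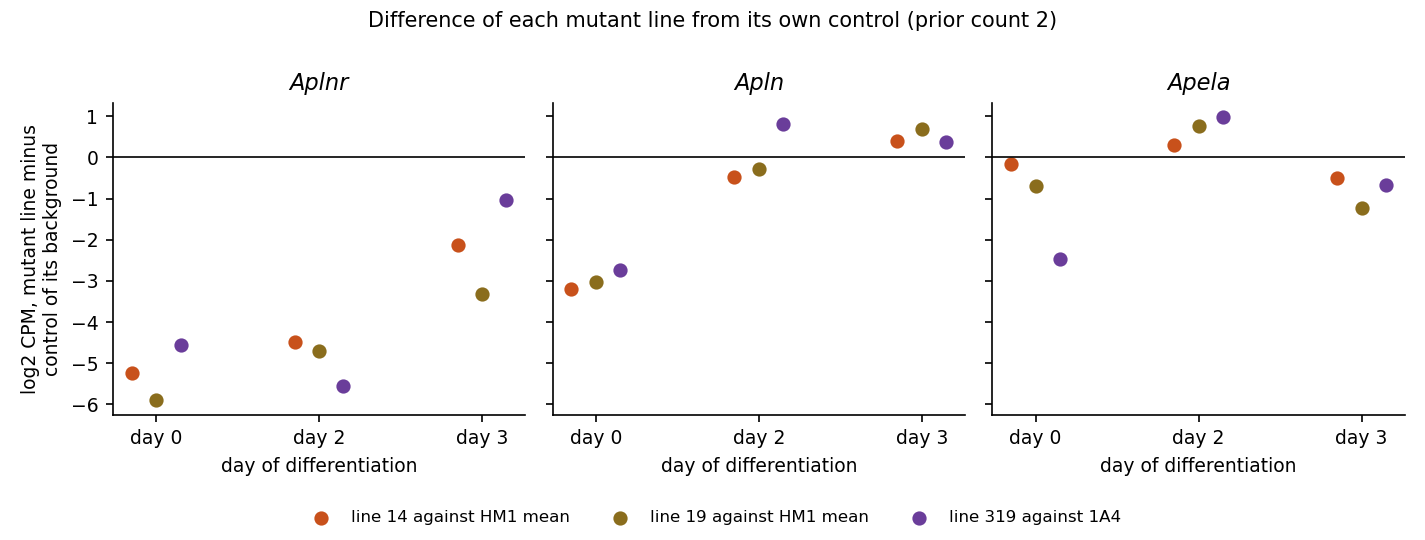
Log2 CPM of each mutant line minus the control of its own background (y axis; lines 14 and 19 against the mean of the HM1 replicates, line 319 against 1A4) at days 0, 2 and 3 (x axis), with 1 panel per gene. Apln lies at -3.19 to -2.73 in all 3 lines at day 0 and above 0 at day 3, while the Apela value of line 319 at day 0, -2.46, lies apart from those of lines 14 and 19.

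The balance of ligands and receptor was compared per kilobase of transcript within each sample. In controls the Apela level was 14.97 to 16.2 times the Apln level at day 0, 5.93 to 7.22 times at day 2 and 6.82 to 11.1 times at day 3. In mutants it was 19.7 to 131.4 times at day 0, 8.08 to 13.3 times at day 2 and 1.91 to 5.27 times at day 3. The ratio was thus higher in every mutant sample than in any control at days 0 and 2, and lower at day 3. These ratios were not tested, and the share of gene pairs that separate alike was not counted. The day 0 ratios carry the low Apln values of the mutants, known when the gene was chosen. At day 2 the nearest values were 7.22 and 8.08, and neither ligand was called between genotypes at days 2 and 3. At day 3 Apln per kilobase was 1.63 to 3.74 times Aplnr in the control samples and 8.67 to 53.7 times Aplnr in the mutant samples, the highest value resting on the 4 Aplnr counts of line 19.

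Among the controls, 1A4 was lower than the HM1 mean in all members at days 0 and 2. The log2 difference at day 0 was -1.39 for Aplnr, -0.55 for Apln and -0.52 for Apela. With 1 sample of 1A4 a day these differences have no replicate check. Aplnr had its lowest control count, 42, in 1A4 at day 0, against 2 counts in the highest mutant sample of that day.

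The genes whose levels ran most like the members over the 18 samples were ranked by Pearson's r on log2 CPM, as a description. These points share lines and group differences, so the coefficients carry the differences between the 6 groups. The 5 closest to Aplnr were Rasgrp1 (r = 0.90), which encodes a Ras activator, the Y-linked Zfy1 (0.90), Lrrc8e (0.88), Klhl6 (0.88) and the Y-linked Uba1y (0.87). Rasgrp1 was at 9.41 ± 1.62 CPM in controls and 1.55 ± 0.52 CPM in mutants at day 0. For Apln the closest were the interferon-inducible GTPase genes Igtp (0.84) and Irgm2 (0.79), with Plch2, Acsl5 and Shc4 between 0.78 and 0.81. For Apela the closest was Pdk1 (0.94), which encodes pyruvate dehydrogenase kinase, followed by Adprm, Dmac2, Zfp7 and Cct2 at 0.92. Aplnr had r = 0.45 with Apln and 0.07 with Apela, and the ligands had r = 0.35 with each other.

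Of 25 genes for processing, breakdown and signalling of apelin peptides, 24 could be tested, and edgeR called 1 of them at day 0, 0 at day 2 and 3 at day 3. Over all genes 0.854%, 1.6% and 5.2% were called on those days. The 1 called at day 0 was Pcsk5, a proprotein convertase, which was lower at 0.175 ± 0.114 against 2.26 ± 0.96 CPM (log2 fold change -3.59, adjusted p = 0.0041). That call was lost without the second HM1 replicate (adjusted p = 0.092). At day 2 none was called in edgeR's test or in limma-voom, 3 had an unadjusted p under 0.05 and DESeq2 called 2. At day 3 Pcsk2, another convertase, was higher (2.30, adjusted p = 0.013), while Hdac5, a deacetylase downstream of apelin signalling in endothelium, and Klf2, a flow-responsive endothelial factor, were lower (-0.88, adjusted p = 0.033, and -1.47, adjusted p = 0.043). Without the first or the second HM1 replicate none of these 3 calls remained, and the Hdac5 and Klf2 calls each failed in 7 of 16 alternatives. The medians of the list were -0.08, -0.21 and -0.08 at days 0, 2 and 3, beside 0.01, 0.02 and 0.02 over all genes.

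Furin, a convertase that can cut both precursors, was at 22.3 to 61.5 CPM over all samples and differed by a log2 fold change of -0.35 at most (day 3, adjusted p = 0.38). Mme, the neprilysin gene, whose product cleaves apelin, was not called at any day. Among 8 related receptor genes 5 were tested and none was called between genotypes by edgeR or limma-voom. In edgeR 1, 2 and 1 of them had an unadjusted p under 0.05 at days 0, 2 and 3, and DESeq2 called 1 at day 2. Agtr1a, an angiotensin receptor and close relative of Aplnr, was near 0.163 CPM in day 0 controls and at 11.5 ± 3.16 CPM in day 3 controls, against 0.206 and 20.2 ± 14.5 CPM in mutants. Ackr3, a scavenging receptor, was 2.49 to 3.90 CPM in day 2 mutants against 0.95 to 1.80 CPM in controls and did not pass (adjusted p = 0.065).

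Aplnr is active in the primitive streak and early mesoderm of the embryo. Of 15 tested genes in a list of 16 for these tissues, 7 were called lower in day 0 mutants and none higher in edgeR's test, 8 were not called, and 10 were lower and 0 higher at an unadjusted p under 0.05. DESeq2 and limma-voom each called 8 lower and 0 higher. The median log2 fold change was -1.99, beside 0.01 over all genes, of which 0.854% were called and 0.788% were called lower. The 4 of largest change were Lhx1 (-5.53, adjusted p = 2.8e-04), Mixl1 (-4.21, adjusted p = 7.5e-05), Msgn1 (-3.85) and T (-3.72). Of the 15, 2 had a log2 fold change above 0, neither called. Lhx1 and Mixl1, transcription factors of mesendoderm, were called in all 16 alternatives, and Msgn1 in 8 of them. Over the list the count ranged from 2, without the second HM1 replicate, to 8, with 4 without the first, and 3 without line 14 or line 19. It was 8 without line 319 and in HM1-derived lines alone. Results of these data were known when the list was drawn up, so this is no independent evidence of a direction.

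At day 2 T (-3.08) and Lhx1 (-4.20) were called lower and Pdgfra (1.47) higher, and at day 3 Lhx1 (2.24) and Pdgfra (1.45) were called higher and none lower in edgeR's test. Of all genes, 1.6% and 5.2% were called on these days. At an unadjusted p under 0.05 the day 3 counts were 4 higher and 3 lower, and DESeq2 and limma-voom each called 2 higher and 1 lower. With day 2 fitted alone, edgeR tested 12 genes of the list and called none of them, and it called 0 of all 16736 genes tested. At day 3 none of the 15 was called without the first or without the second HM1 replicate. Lhx1 was at 8.77 ± 4.92 CPM in controls and 0.203 ± 0.032 CPM in mutants at day 0, and at 9.02 ± 5.62 and 42.3 ± 22.8 CPM at day 3. Cer1, a secreted Nodal and BMP antagonist, had 0 counts in the day 0 mutants and up to 36 in the controls, and was called lower (adjusted p = 6.7e-04). At day 2 Cer1 was at 0.0839 ± 0.0455 against 4.37 ± 1.70 CPM. It was the 1 gene called among 14 tested genes of Nodal signalling at each of those days, and both Cer1 calls were lost with each day fitted alone (adjusted p = 0.063 and 0.059). At day 3 the 1 gene of that list called was Tdgf1, a Nodal co-receptor, which was lower (-2.55, adjusted p = 0.041), a call lost without either HM1 replicate.

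**Figure D4:**
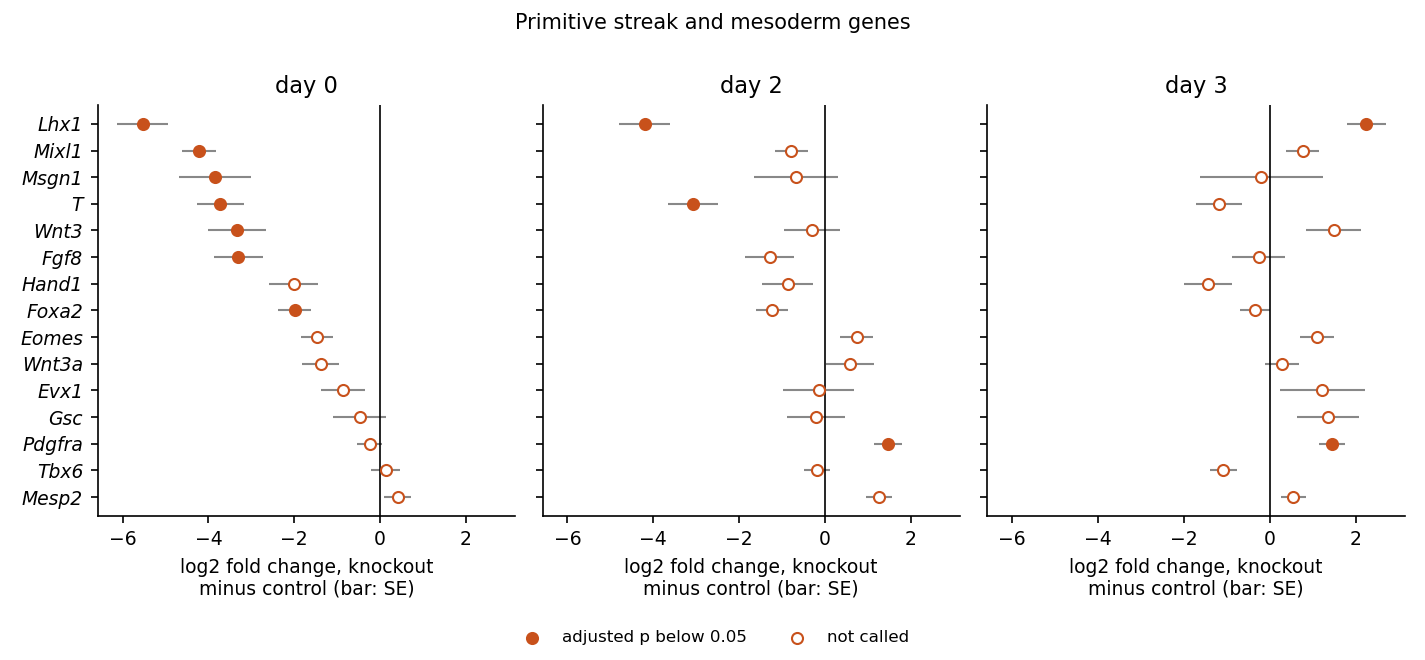
Log2 fold change of mutants against controls with its SE (x axis) for the 15 tested streak and mesoderm genes (y axis, ordered by day 0) at each day. Filled points have an adjusted p below 0.05: 7 lie on the lower side at day 0, T and Lhx1 do so at day 2, and Lhx1 and Pdgfra lie on the higher side at day 3.

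Of 11 endoderm genes tested, edgeR called Cer1 and Foxa2 (-1.99, adjusted p = 0.020) lower at day 0 and Cer1 alone at day 2. At day 3 Gata4 (1.36, adjusted p = 0.023) and Foxa1 (1.26, adjusted p = 0.045), both transcription factors of endoderm, were called higher. Of 10 neural genes tested, Zic1 was called higher at day 2 (2.15, adjusted p = 0.039, and 0.069 in limma-voom with the cell line as a block). At day 3 Zic1 (2.94, adjusted p = 0.0030), Pax6 (2.25, adjusted p = 0.012) and Irx3 (1.55, adjusted p = 0.039), all neural transcription factors, were called higher. Among 13 targets of p53 the 1 call was Sesn2, a stress-response gene, at day 3 (1.00, adjusted p = 0.0044), and among 10 pluripotency genes it was Sox2 at day 2 (0.83, adjusted p = 0.020). All of these calls but those of Cer1 were lost when either the first or the second HM1 replicate was left out. The shares called over all genes were 0.854%, 1.6% and 5.2% at days 0, 2 and 3.

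Apelin signalling is also tied to endothelium, and its ligand gene Apln to low oxygen. Of 12 tested endothelial and blood genes none was called at day 0 in edgeR's test, 3 had an unadjusted p under 0.05, and DESeq2 and limma-voom each called 1. Kdr, the main VEGF receptor, was lower at day 2 (-2.31, adjusted p = 0.020) and day 3 (-1.98, adjusted p = 0.011), when the endothelial regulator Etv2 was lower as well (-2.08, adjusted p = 0.028). Esam at day 2 (2.08) and Gata2 at day 3 (1.21) were higher. Of 14 hypoxia-responsive genes none was called at day 0 in edgeR's test or in limma-voom, 1 had an unadjusted p under 0.05 and DESeq2 called 1. Vegfa was lower at day 2 (-1.18) and day 3 (-0.93), and Pgk1 was higher at day 2 (0.84). Each of these calls of endothelial and hypoxia genes was lost when either the first or the second HM1 replicate was left out. Beside them, 0.854%, 1.6% and 5.2% of all genes were called at days 0, 2 and 3. The part of low oxygen in the Apln differences was not tested.

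Among the markers of fibroblasts, the feeder cells of the cultures, 0, 3 and 3 were called lower at days 0, 2 and 3 in edgeR's test. Calls in either direction made up 0.854%, 1.6% and 5.2% of all genes on those days. The summed level of 12 such genes was 160.2 to 332 CPM in controls and 111.4 to 185.7 CPM in mutants at day 0, 171.3 to 240.3 and 96.1 to 128.0 CPM at day 2, and 255 to 376 and 141.6 to 221.7 CPM at day 3. None of the 11 tested was called at day 0 in edgeR's test or in limma-voom, 4 had an unadjusted p under 0.05 and DESeq2 called 2. In edgeR's test Postn, Acta2 and Tagln, which mark matrix-producing and contractile cells, were called lower at days 2 and 3. The Tagln calls were lost in 10 and 7 of 16 alternatives. The other 8 were not called. A log2 fold change above 0 was found for 6 of the 11 at day 2 and 5 at day 3, and the medians were 0.19 and -0.07. At day 3 DESeq2 and limma-voom each called 1 higher. All 12 were detected in the controls at each day. Fewer cells of a type and less RNA per cell cannot be told apart in these bulk samples, and the part of feeder cells in the Aplnr and Apln differences was not tested.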

How the data were processed

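The values are the whole-number counts per Ensembl transcript that the authors deposited, 1 table for each of 72 libraries. Per the submitters' processing notes, bcl2fastq 2.17.1.14, STAR 2.4.0k, SAMtools and HTSeq were used with build mm10; parameters, the strand setting and the annotation release are not given in the sources used here. Per the labels' protocols, libraries were made with a strand-specific kit. Of 110379 transcripts, 108214 matched GENCODE M21, and unmatched rows (1.44 to 2.46% of counts) were left out. The 4 technical replicates of a sample agreed within sampling noise (chi-square per degree of freedom 1.01 to 1.03) and were added up.

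The 18 samples were fitted together with edgeR 4.0.16 (R 4.3.3): TMM scaling, filterByExpr, robust quasi-likelihood tests, 6 groups plus genetic background, 11 residual degrees of freedom, and Benjamini-Hochberg adjustment over 18273 genes, with calls at an adjusted p below 0.05. Log2 CPM used a prior count of 2, and SE is the fold change divided by the root of the F statistic. DESeq2 1.42.0, limma 3.58.1 (voom, with the cell line as a random block), other scaling, no filter, no background term, other transcript choices and left-out samples were alternatives. The edgeR test was tested on simulated data for the day 0 genotype contrast. HM1 replicates are labelled biological; other lines are 1 sample a day, so p-values measure the spread between these samples. The same lines were followed over the days, which pairs days by cell line: in 16 of 18 pairs of samples the deviations from the group means correlated above 0.1.

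The members and gene lists were chosen with earlier results of these data known. Named genes are the members, the 5 genes most like each by Pearson's r over the samples, list genes called in a genotype contrast (up to 4 by size for each list and day), a few relatives and processing enzymes, and Nup133.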

Additional observations from a re-analysis of the deposited data

Results flagged for a closer look

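The genotype difference of Apln changed between days by a test of the change itself: by 3.04 on the log2 scale from day 0 to day 2 (adjusted p = 0.0019) and by 3.53 from day 0 to day 3 (adjusted p = 1.5e-04), in edgeR's quasi-likelihood interaction tests. All 3 mutant lines were under all controls at day 0, a separation found for 9.7% of genes. At day 3 all 3 lines were above the control of their own background, and the share of genes doing so was not counted. The groups overlapped at day 3, and edgeR's test did not call the difference (adjusted p = 0.22). Apln was chosen with earlier results of these data known, so these tests are no independent support.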

How the results depend on the processing

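Values are log2 fold changes. The Apln deficit at day 0, the Apln rise and both retinoic acid falls of Apln, the Apela fall of mutants at day 3 and the Apln interaction from day 0 to day 3 were called in every alternative run on them. A replicate block on the cell line changed no member's call and no count of genes called between genotypes or between days by over 1.5 times, but took the interaction counts from 4 to 1 (day 0 to day 2) and from 7 to 3 (day 2 to day 3). With line as a fixed term the Apln rise in mutants was 2.93 and the Apela control step to day 2 was -1.35. In limma-voom with line as a random term Apln at day 2 was -0.039, on the other side of 0. That run changed the test method as well as the block. The uncalled Apln difference at day 2 was also negative without the filter (-0.019), without the background term (-0.041) and in HM1-derived lines alone (-0.40), and it ranged from -0.30 to 0.22 with 1 line or replicate left out. In HM1-derived lines alone the control Apln step to day 2 was 0.020, the mutant Apela step to day 2 was -0.33, the Apln interaction from day 0 to day 2 was 2.73 and no longer called, and the Apela interaction from day 0 to day 3 was -0.42. That last value was -0.043 without the background term.

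The Aplnr difference at day 3 lost its call without the background term (-2.20) and with all transcripts added up (-2.04). The Apela control step to day 2 lost its call without the filter (-1.33). The Apela control step to day 3 gained a call in 7 of 15 alternatives: with DESeq2 size factors (-1.25), the longest transcript (-1.25), DESeq2 (-1.25), without line 319 (-1.27), without line 19 on all days (-1.24) or on day 2 (-1.25), and in HM1-derived lines alone (-1.61). The Apela difference at day 3 gained one with each day fitted alone (-0.78). The cause of these changes was not tested. With 1 line or replicate left out, Aplnr ranged from -7.60 to -6.19 at day 0, -6.75 to -5.02 at day 2 and -2.79 to -1.69 at day 3, and over its control step to day 2 from -0.60 to 0.27. Apela ranged from -1.02 to -0.38 at day 3, from -1.39 to -1.29 and -1.62 to -1.03 over its control steps to days 2 and 3, from -0.33 to 0.77 over the mutant step to day 2, and from -0.69 to 0.57 for the interaction from day 0 to day 3. The Apln interaction from day 0 to day 2 ranged from 2.86 to 3.20.

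Between genotypes 156, 292 and 951 genes were called on the 3 days in order. DESeq2 called 562, 1400 and 2063, and edgeR with each day fitted alone called 244, 0 and 2546, where 1460 genes had an unadjusted p under 0.05 at day 2. Without the background term days 2 and 3 gave 185 and 516, HM1-derived lines alone gave 313 at day 0, and without line 19 at day 2 the numbers were 380 at day 0, 3007 at day 3 and 6138 for the control step to day 3. With 1 line or replicate left out the count spanned 18 to 406 (day 0), 22 to 1374 (day 2), 17 to 2019 (day 3), 2833 to 8904 and 1215 to 6362 (control steps, 6438 and 3918 with all samples), and 3813 to 7718 and 4340 to 7583 (mutant steps, 6561 and 6141). The lowest counts at days 0 and 3 came without the second HM1 replicate. Depth limits Aplnr in mutants, where days 0 and 2 rest on 4 and 6 counts in all.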
